A study of Homo sapiens with 688 samples.

Results

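The comparison set the vehicle wells of 2 established human cancer lines against each other, BT20 and U87, both profiled by PLATE-Seq, in which the messenger RNA of each well is captured on oligo(dT), reverse transcribed with a barcoded primer and sequenced from its 3′ end in a pool of all wells. BT20 is an epithelial breast carcinoma line of the basal, hormone receptor negative kind, and U87 is a glioblastoma line. The members were chosen by label alone: all 12 BT20 wells that received DMSO for 6 h on a 96-well plate, and all 8 U87 wells that received DMSO for 24 h, 2 on each of the 4 plates named U87PS1A, U87PS1B, U87PS4A and U87PS4B. They are 20 of the 688 libraries of the series. Set beside them, as levels, were 2 BT20 DMSO libraries made with TruSeq, a conventional kit that covers whole transcripts, each from a pool of 6 wells; the 8 UNTREATED U87 wells of the same 4 plates; and the untreated wells of LnCAP, a prostate cancer line. The study states that BT20 is on a public list of lines that are often misidentified and that all lines came from a repository that authenticates them. According to the labels, wells of both lines were frozen in serum with DMSO before lysis, whereas the methods of the study describe lysis in place for U87, with lysates of paired culture wells combined into each library.

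Carcinoma lines of epithelial origin hold their cells together with E-cadherin, tight junctions and desmosomes, and fill them with keratin filaments. Cells of glial and mesenchymal character use vimentin in place of keratins, and they lay down and remodel collagen matrix. Transcription factors of the ZEB and SNAI families repress the epithelial genes by binding E-boxes near their start sites, while the splicing factors ESRP1 and ESRP2 and factors such as ELF3 and GRHL1 accompany the epithelial state. EGFR, the receptor for epidermal growth factor, lies on chromosome 7 and is known for its amplification both in glioblastoma and in some breast cancer lines, BT20 among them.

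Levels are given as CPM, the count of a gene per 1000000 counts on the 23183 symbols listed in the tables of both lines (6 BT20 symbols were left out by rule, and none of them is in the U87 tables). Those 23183 symbols took 55.6 to 61.0% of the counts of a BT20 vehicle well, leaving 221953 to 641131 counts a well, and 99.8% of those of a U87 vehicle well, leaving 444496 to 798393. The remaining BT20 counts lay on 5247 symbols that only the BT20 tables list, the 6 included. Where no other wells are named, BT20 wells and U87 wells below are the 12 and 8 vehicle wells. A difference was called large when edgeR's quasi-likelihood test gave an adjusted p under 0.05 (Benjamini-Hochberg) and the fold change was at least 8, a log2 fold change of 3 on the positive side where BT20 was higher. The limit was set this high because each line was on its own plates, with its own treatment time, sequencer and symbol table, and these cannot be told apart from the cell line. Nor can fewer cells and less RNA per cell. The wells of a line share a plate or a few plates and nothing says that they came from separate cultures, so the p-values measure the spread between wells.

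Of 7247 genes with enough counts for a test, 649 (8.96%) were higher in BT20 by this rule and 484 (6.68%) were higher in U87. The wells of the 2 lines did not overlap for 581 of the 649 and for 464 of the 484, and over all tested genes they did not overlap, with BT20 or U87 higher, for 16.3% and 12.1%; the rule itself favours genes without overlap, so these counts are descriptions. An adjusted p under 0.05 alone was reached by 68.3% of all tested genes, 34.4% higher in BT20 and 33.8% higher in U87, so passing that limit alone separates few genes from the rest. The median log2 fold change over all tested genes was 0.01. With the TruSeq pools in place of the BT20 wells, 510 of the 649 (7.04% of all tested) and 403 of the 484 (5.56%) were again large in the same direction, and 0 were large in the opposite one. That fit used the same 8 U87 wells, and the pools were made from the other part of the material of the same 12 BT20 wells, so it shows how far a value depends on the library method and is no independent repeat. A gene entered the test through the line in which it was high, so shares among tested members are descriptions only. The background for large members of every list below is 8.96% in BT20 and 6.68% in U87.

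The 4 genes that mark these identities split as follows. KRT8 and KRT18, the paired keratins of simple epithelia, were high in every BT20 well and near 0 in U87. KRT8 was at 1289.7 to 2136 CPM (median 1683) in the 12 BT20 wells and at 0 to 6.75 CPM (median 0.872) in the 8 U87 wells, a log2 fold change of 9.71 ± 0.33 (SE) with an edgeR adjusted p of 1.94e-24. KRT18 was at 2123 to 2517 CPM (median 2334) against 0 to 14.5 CPM (median 2.37), a log2 fold change of 8.81 ± 0.37 (SE) (edgeR adjusted p = 1.20e-20). The 2 ranges were far apart for both keratins, and the TruSeq pools held KRT8 at 2631 and 2952 CPM and KRT18 at 2152 and 2411 CPM. VIM, the intermediate filament vimentin, had the reverse pattern, at 0 to 12.9 CPM (median 1.09) in BT20 and 899 to 3542 CPM (median 2705) in U87, with a log2 fold change of -9.35 ± 0.42 (SE) (edgeR adjusted p = 1.90e-16). Its level in the TruSeq pools was 3.93 and 3.57 CPM, so both BT20 methods placed it near 0. LnCAP, an epithelial line counted on the same symbol table as U87, had medians of 32.1 CPM for KRT8, 214 CPM for KRT18 and 1.79 CPM for VIM. The UNTREATED U87 wells had medians of 0.529, 1.01 and 2701 CPM for the same 3 genes. Both keratins were thus far lower in LnCAP than in BT20. Whether the symbol table has a part in their low U87 levels was not tested.

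**Figure D1:**
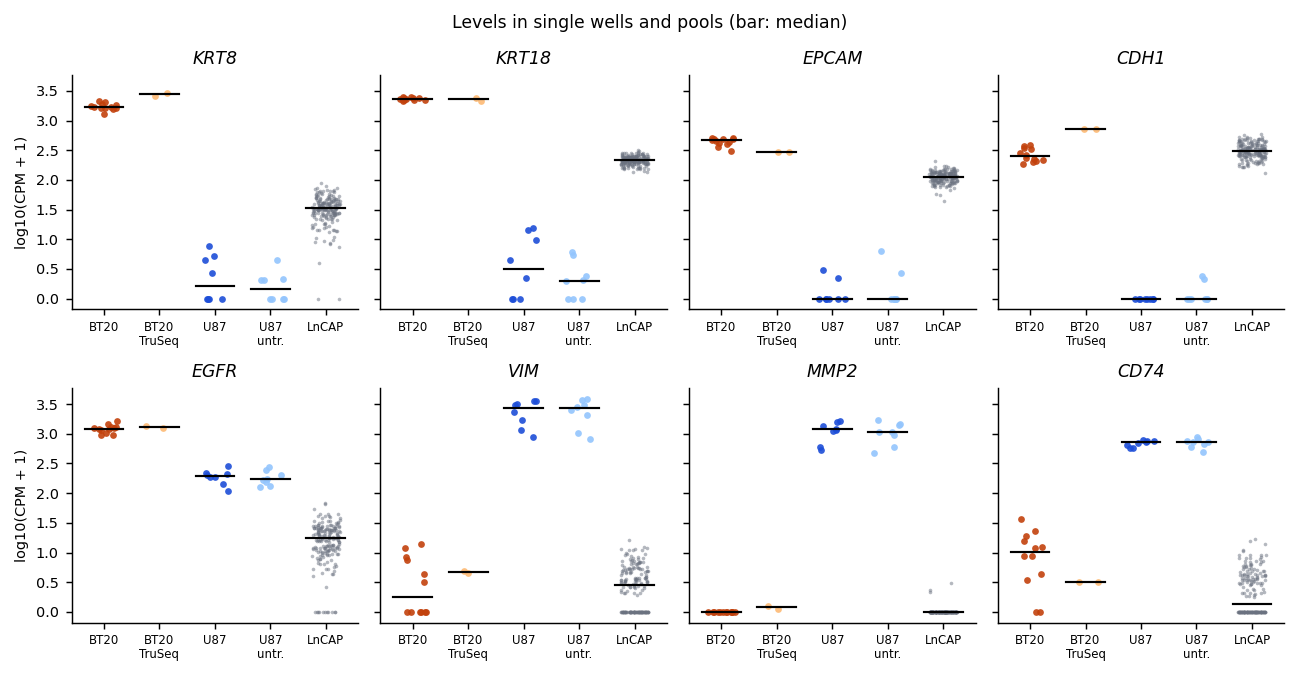
Levels of 8 genes as log10(CPM + 1) on the vertical axis, with a point for each well or pool and a bar at the median, for BT20 DMSO wells (12), BT20 DMSO TruSeq pools (2), U87 DMSO wells (8), U87 UNTREATED wells (8) and LnCAP wells. The BT20 points of KRT8, KRT18, EPCAM, CDH1 and EGFR all lie above the U87 points, and those of VIM, MMP2 and CD74 all lie below.

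EGFR did not reach the 8-fold limit. It was at 941 to 1613 CPM (median 1216) in BT20 and 109.5 to 283 CPM (median 193.5) in U87, a log2 fold change of 2.49 ± 0.16 (SE) (edgeR adjusted p = 6.32e-16). The BT20 and U87 wells did not overlap, and this held over all BT20 and U87 PLATE-Seq wells of the series, drug-treated wells included. The TruSeq pools read 1364 and 1272 CPM, close to the PLATE-Seq wells. LnCAP had a median of 16.3 CPM, so the U87 level lay between those of the other lines.

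Among 20 keratins, 7 were tested (median log2 fold change 7.98), 6 were large and higher in BT20 and 0 in U87, and the same 6 were large with TruSeq. KRT5, the basal keratin, was at 2633 to 3975 CPM (median 3467) in BT20 and 0 to 27.0 CPM (median 5.01) in U87, a log2 fold change of 8.42 ± 0.42 (SE) (edgeR adjusted p = 4.13e-16). KRT7, a keratin of glandular ducts, was at 2545 to 4256 CPM (median 3845) against 5.11 to 23.8 CPM (median 16.1) (7.73 ± 0.26 (SE); edgeR adjusted p = 1.57e-24). KRT5 and KRT7 thus stood above KRT8 and KRT18 in all 12 BT20 PLATE-Seq wells, and LnCAP had medians of 0 for KRT5 and KRT7. With the TruSeq pools the log2 fold changes of KRT5 and KRT7 came down to 6.145 and 6.28. Those of KRT8 and KRT18 were 10.14 and 8.41 there, so the order is given for the PLATE-Seq wells only. KRT4 and KRT80 were the other large members, at log2 fold changes of 7.98 and 3.22; KRT80 came under 3 with the UNTREATED U87 wells (2.92), without plate U87PS4A (2.91), after thinning all wells to 1 depth (2.68), on plate U87PS1A alone (2.30) and on U87PS1B alone (2.91), and was at 4.70 with TruSeq. KRT14, the usual partner of KRT5, had medians of 0 CPM in BT20 and 0 CPM in U87 and too few counts for a test. KRT19 differed between the library methods. It was at 0 to 1.92 CPM in the BT20 PLATE-Seq wells but at 436 and 527 CPM in the TruSeq pools.

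Genes of epithelial adhesion were higher in BT20. Of 32 listed, 21 were tested (median log2 fold change 7.22, or 6.43 with genes at 0 set to their bounds), 18 were large and higher in BT20, 0 were higher in U87, and all 18 were also large with TruSeq. The summed level of the list was 4761 to 5921 CPM in the BT20 wells and 73.0 to 200.5 CPM in the U87 wells. CDH1, E-cadherin of the adherens junction, was at 183.2 to 388 CPM (median 249.2) in BT20 and had 0 counts in all 8 U87 wells, so it was at least 452-fold higher against a floor of 3 counts over the group. In all U87 wells 3 counts correspond to 0.596 CPM, and in all BT20 wells to 0.475 CPM. EPCAM, an adhesion molecule of epithelial surfaces, was at 311 to 505 CPM (median 463) in BT20 against 2 counts in all U87 wells together, a ratio of 1141 (95% exact interval 316 to 9426) that covers counting error only. Both genes were also counted in LnCAP, at medians of 311 and 112.8 CPM, on the symbol table that U87 used. CDH3, the placental cadherin of basal mammary cells, was at 126.4 to 281 CPM (median 161.5) in BT20 with 0 counts in U87, at least 302-fold higher, and had a median of 0 in LnCAP. RAB25, a small GTPase of epithelial recycling endosomes, and MARVELD3, a tight junction protein, were at 0 in all U87 wells and at least 431-fold and 219-fold higher in BT20. SPINT2, an inhibitor of membrane serine proteases, had the largest log2 fold change among members with counts in most U87 wells, 8.90 ± 0.31 (SE), at 813 to 1517 CPM (median 1222) against 0 to 6.75 CPM (median 1.88) (edgeR adjusted p = 3.04e-24). F11R, PERP and DSG2, 3 junction genes found in many cell types, passed the adjusted p but were under the 8-fold limit, with log2 fold changes of 2.98, 2.17 and 0.91.

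Regulators of the epithelial state followed. Of 24 listed factors, 12 were tested (median 5.18), 9 were large and higher in BT20, 8 of them with TruSeq too, and 0 were higher in U87. ESRP2, a splicing factor of epithelial cells, was at 72.5 to 177.2 CPM (median 111.4) in BT20 and had 1 count in all U87 wells, a ratio of 597 (95% exact interval 106.9 to 23627). ELF3, an epithelial ETS factor, was at 198 to 388 CPM (median 295) against 0 to 5.11 CPM (median 1.03), a log2 fold change of 7.35 ± 0.35 (SE) (edgeR adjusted p = 5.29e-20). FOXA1, a pioneer factor of luminal mammary cells, was at 17.4 to 84.3 CPM (median 46.0) with 0 counts in U87, at least 79.0-fold higher. GRHL1, a factor of epithelial barriers, had 3 counts over all U87 wells, a ratio of 68.5 (95% exact interval 23.2 to 334). The mammary factors GATA3, TFAP2A and TFAP2C were also large, at 4.62, 4.86 and 4.56 on the log2 scale, although TFAP2A came to 2.44 with TruSeq. KLF5 and SOX9 were under the limit, and FOXC1, a factor linked to basal breast cancer, did not pass the test, with a log2 fold change of 0.14 ± 0.30 (SE) (edgeR adjusted p = 0.696).

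Promoters of a few genes that hold a searched sequence are shown, as examples chosen for holding it, because the repressors ZEB2 and SNAI2, which differed in the opposite direction, are known to bind the E-box CACCTG, read on either strand. The sequences are those of RefSeq on GRCh38.p14, from 250 bases before to 50 bases after the annotated start site, with CACCTG or its complement CAGGTG and the AP-1 sequence TGANTCA in capitals; 3′-end counts do not tell which start site a line uses.
KRT5, chr12:52520345-52520644, minus strand: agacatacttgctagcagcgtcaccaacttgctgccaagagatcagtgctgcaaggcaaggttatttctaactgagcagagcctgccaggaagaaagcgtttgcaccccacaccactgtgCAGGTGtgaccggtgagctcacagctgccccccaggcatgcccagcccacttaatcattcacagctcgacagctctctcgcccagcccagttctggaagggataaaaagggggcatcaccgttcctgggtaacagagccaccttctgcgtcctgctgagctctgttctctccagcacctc
RAB25, chr1:156060910-156061209, plus strand: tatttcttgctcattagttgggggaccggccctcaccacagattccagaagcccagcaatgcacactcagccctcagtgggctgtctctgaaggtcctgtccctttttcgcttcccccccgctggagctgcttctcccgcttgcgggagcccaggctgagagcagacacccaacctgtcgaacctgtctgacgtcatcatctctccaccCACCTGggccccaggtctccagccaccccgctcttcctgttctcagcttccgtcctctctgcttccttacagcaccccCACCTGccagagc
ELF3, chr1:202010337-202010636, plus strand: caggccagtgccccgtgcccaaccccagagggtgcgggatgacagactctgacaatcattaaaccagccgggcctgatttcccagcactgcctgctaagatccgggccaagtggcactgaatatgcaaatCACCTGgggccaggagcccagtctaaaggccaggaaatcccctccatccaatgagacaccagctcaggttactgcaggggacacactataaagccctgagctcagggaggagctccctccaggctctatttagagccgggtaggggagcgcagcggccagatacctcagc
S100A9, chr1:153357604-153357903, plus strand: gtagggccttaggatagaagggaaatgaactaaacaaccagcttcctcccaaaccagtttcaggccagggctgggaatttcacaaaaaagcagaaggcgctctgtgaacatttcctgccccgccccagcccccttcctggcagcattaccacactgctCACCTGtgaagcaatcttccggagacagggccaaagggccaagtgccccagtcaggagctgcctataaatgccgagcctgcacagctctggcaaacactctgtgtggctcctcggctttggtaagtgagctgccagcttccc
CXCL8, chr4:73740319-73740618, plus strand: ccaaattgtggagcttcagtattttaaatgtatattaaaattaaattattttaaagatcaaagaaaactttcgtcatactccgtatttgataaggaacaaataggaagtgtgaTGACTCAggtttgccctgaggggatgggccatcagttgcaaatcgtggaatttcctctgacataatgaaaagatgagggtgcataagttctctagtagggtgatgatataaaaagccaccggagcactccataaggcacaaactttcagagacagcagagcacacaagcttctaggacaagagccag
The E-box stood 130 bases before the start of KRT5, 120 before that of ELF3 and 92 before that of S100A9, and RAB25 held it 2 times, 41 bases before and at base 38 after its start. CXCL8 (IL8 in the tables), shown as a gene high in U87 that holds the AP-1 sequence, held no E-box. Over the promoters that could be matched, the E-box was present in 120 of 478 (25.1%) of the genes large and higher in BT20, in 61 of 376 (16.2%) of those higher in U87, in 16.4% of the 5961 tested genes and in 20.6% of all 27305 promoters of that length. The AP-1 sequence, which reads the same on both strands, was present in 4.18%, 8.51%, 4.11% and 7.76% of the same sets. These shares are descriptions and were not tested. Binding was not measured, and whether ZEB2 or SNAI2 has a part in these levels was not tested. All 4 S100 genes that were large in BT20 and had a promoter to search (S100A8, S100A9, S100A14 and S100P) held the E-box, as did 3 of 9 junction genes, 2 of 5 epithelial factors and 1 of 3 keratins. Among genes higher in U87 it was in 4 of 13 secreted genes (IGFBP3, IGFBP6, SCG5 and STC2). It was also in 2 of 4 EGFR ligand and feedback genes (EREG and HBEGF) and in 0 of 10 matrix genes. The AP-1 sequence was in 4 of the 13 secreted genes, so single lists do not all follow the split of the whole sets.

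Genes of mesenchymal filaments and adhesion leaned to U87. Of 29 listed, 16 were tested (median log2 fold change -3.04), 8 were large and higher in U87, all 8 with TruSeq too, and 1, the actin-binding protein CNN3 (3.46 on the log2 scale), was higher in BT20. ACTA2, smooth muscle actin, was at 57.8 to 87.9 CPM (median 75.5) in the U87 wells with 0 counts in BT20, at least 157.4-fold higher in U87. AXL, a receptor tyrosine kinase of mesenchymal cells, was at 177.7 to 288 CPM (median 240.2) against 0 to 23.8 CPM (median 0) in BT20, with a log2 fold change of -6.58 ± 0.45 (SE) (edgeR adjusted p = 5.01e-14). NT5E (CD73) and LGALS1 (galectin-1) differed by -5.60 and -3.78, and LGALS1 was still at a median of 477 CPM in BT20 against 6391 CPM in U87. Repressors of the epithelial genes were in this group. ZEB2 was at 22.5 to 81.9 CPM (median 37.7) in U87 and had 0 counts in BT20, at least 89.0-fold higher in U87, and SNAI2 (Slug) differed by -3.22 ± 0.46 (SE) (edgeR adjusted p = 1.36e-07), with ranges of 0 to 31.5 CPM (median 5.04) and 23.8 to 86.6 CPM (median 70.0) in BT20 and U87 that overlapped. ZEB1 had medians of 34.9 CPM in U87 and 1.25 CPM in BT20, and CDH2 (N-cadherin) of 35.2 and 0 CPM, both without a test. FN1, the matrix glycoprotein fibronectin, gave no stable direction: its log2 fold change was -1.11 with the PLATE-Seq wells and 1.91 with the TruSeq pools.

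**Figure D2:**
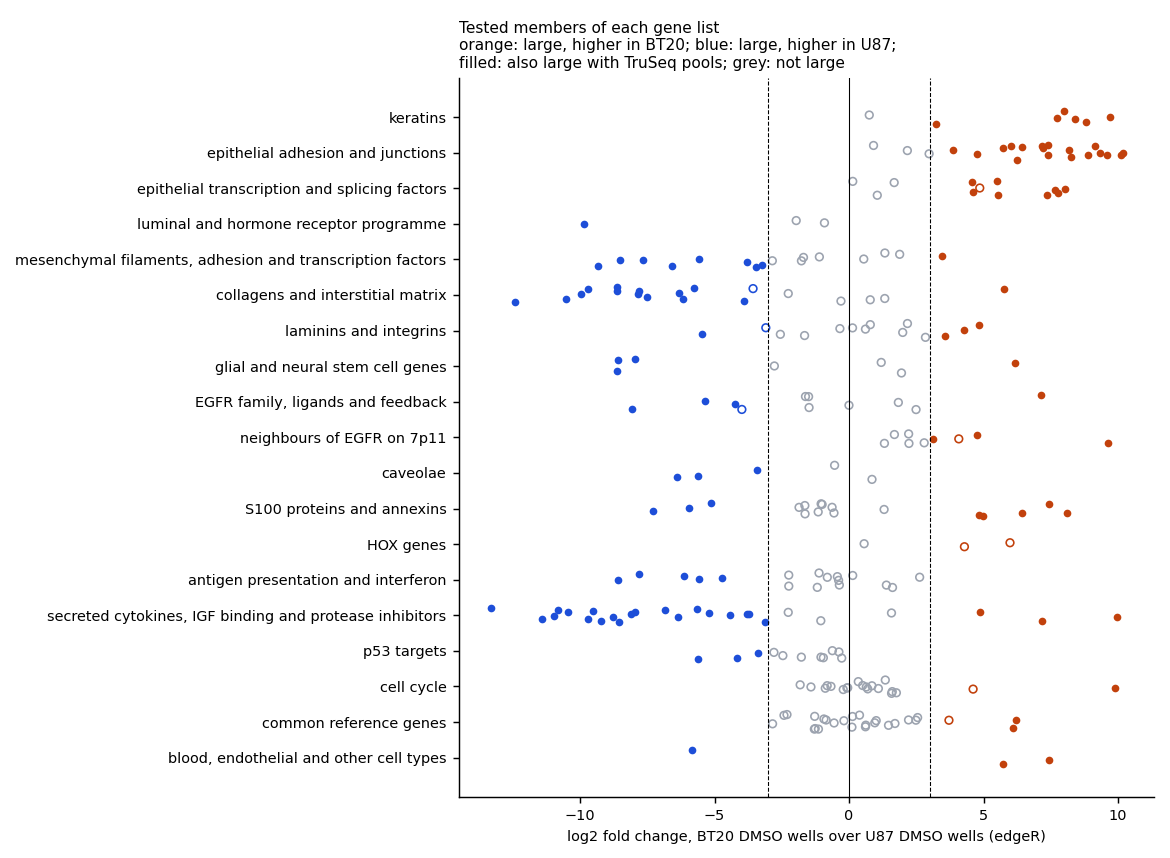
The log2 fold change of BT20 over U87 vehicle wells (horizontal axis) for each tested member of the gene lists with at least 3 tested members, 1 row a list, with vertical jitter only to separate points. Keratins, junction genes and epithelial factors have their large members on the BT20 side, and matrix, antigen presentation and secreted genes have most of theirs on the U87 side; values of genes at 0 in a line depend on the prior count of the fit.

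Matrix genes were the next block on the U87 side. Of 39 collagens and matrix genes, 19 were tested (median -6.31), 14 were large and higher in U87, 13 with TruSeq too, and the summed level of the list was 10385 to 17569 CPM in U87 and 713 to 902 CPM in BT20. MMP2, the gelatinase that cuts basement membrane collagen, was at 531 to 1631 CPM (median 1184) in the U87 wells and at 0 in all BT20 wells, at least 2419-fold higher. SPARC, a collagen-binding matrix protein, and LOX, the enzyme that cross-links collagen, were at 175.6 to 437 CPM (median 313) and 107.7 to 280.1 CPM (median 160.05) with 0 counts in BT20, at least 647-fold and 367.95-fold higher. TIMP3 and FBN1 (fibrillin-1) were likewise at 0 in BT20, and COL6A3 had 1 count there, a ratio of 886 (95% exact interval 158.6 to 35057). The fibrillar collagen COL1A1 was at 18.2 to 50.8 CPM (median 28.4) in BT20 and 813 to 3313 CPM (median 1786) in U87, a log2 fold change of -6.18 ± 0.29 (SE) (edgeR adjusted p = 1.95e-18). TGFBI, a matrix protein induced by TGF-β, was at 1168 to 3689.8 CPM (median 1609) in U87 against 0 to 35.1 CPM (median 4.26), with -7.84 ± 0.44 (SE) on the log2 scale. The exception was THBS1 (thrombospondin-1), which was higher in BT20, at 242 to 476 CPM (median 335) against 0 to 11.7 CPM (median 3.94), with a log2 fold change of 5.75 ± 0.28 (SE) (edgeR adjusted p = 6.11e-20) and 679 and 685 CPM in the TruSeq pools.

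Receptors for matrix were divided between the lines. Of 29 laminins and integrins, 14 were tested (median 0.70), 3 were large and higher in BT20 and 2 in U87. Over all tested genes these shares were 8.96% and 6.68%, and 14 members are few to set against them. ITGB1, the common β1 integrin subunit, was at 954 to 1648 CPM (median 1273) in BT20 and 22.3 to 113.3 CPM (median 61.5) in U87, with a log2 fold change of 4.27 ± 0.21 (SE) (edgeR adjusted p = 7.41e-20). LnCAP, on the symbol table of U87, read a median of 10.7 CPM, and whether the table has a part in the low U87 level was not tested. ITGB4, the partner of α6 in hemidesmosomes, differed by 4.81 ± 0.53 (SE), and LAMA3, a chain of laminin-332, by 3.56 ± 0.69 (SE) with overlapping wells. ITGA5, the fibronectin receptor subunit, went the other way, at 481 to 1558 CPM (median 820.5) in U87 against 0 to 48.4 CPM (median 22.8) in BT20, with -5.46 ± 0.37 (SE) (edgeR adjusted p = 1.53e-12). ITGA2 was just past the limit at -3.10 and went to -1.27 with TruSeq.

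Secreted factors gave the largest count in the lists. Of 47 cytokines, growth factor binding proteins, proteases and inhibitors, 26 were tested (median -6.61), 20 were large and higher in U87 and 3 in BT20, and all 23 were also large with TruSeq. The U87 sum for the list was 11586 to 40216 CPM, a wide range, and the BT20 sum was 4040 to 6233 CPM. PLAU, the protease urokinase that activates plasminogen, was at 328 to 903 CPM (median 543) in U87 and 0 in BT20, at least 1214-fold higher. IL1B, a cytokine of acute inflammation, was at 584 to 3942 CPM (median 2002) in U87 and 0 in BT20, at least 4549.5-fold higher, and IL8 (CXCL8), a neutrophil chemokine, was at 128.1 to 1278 CPM (median 712) against 1 count in all BT20 wells, a ratio of 3810.2 (95% exact interval 683 to 150546). The colony-stimulating factor CSF3 was at 1017 to 3398 CPM (median 1637) in U87 and 0 in BT20, at least 3991-fold higher. The U87 plates differed among themselves: the plate means of IL1B ran from 621 CPM on U87PS4B to 3890.3 CPM on U87PS1B. Each of its plate means was above the BT20 wells, which were all at 0.

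The insulin-like growth factor binding proteins went both ways. IGFBP5 was among the most abundant genes of BT20, at 2911 to 5070.1 CPM (median 3846) against 0 to 9.93 CPM (median 1.52) in U87, with a log2 fold change of 9.98 ± 0.34 (SE) (edgeR adjusted p = 1.94e-24) and 3275 and 3329 CPM in the TruSeq pools. IGFBP3, IGFBP6 and IGFBP7 were at medians of 454, 182.4 and 296 CPM in U87 and at 0 in all BT20 wells, at least 909-fold, 359-fold and 619-fold higher in U87. LCN2 (lipocalin-2) and SLPI, an inhibitor of leukocyte protease, were the other secreted genes higher in BT20, at 438 to 696 CPM (median 576) and 140.1 to 235 CPM (median 180.7), with log2 fold changes of 7.19 and 4.87. Outside the lists, TFPI2, an inhibitor of serine proteases in the matrix, was at 1909.7 to 7807 CPM (median 4897) in U87 against 5.48 to 36.0 CPM (median 11.4), with -8.65 ± 0.32 (SE) (edgeR adjusted p = 8.84e-21). TMEM158, a membrane protein first found in senescent cells with active RAS, was at 4081 to 5413 CPM (median 4969) against 0 to 28.0 CPM (median 12.9), with -8.58 ± 0.23 (SE) (edgeR adjusted p = 7.27e-27). UCHL1, a ubiquitin hydrolase of neurons, was at 657 to 1592 CPM (median 1195) in U87 and 0 in BT20, at least 2404-fold higher.

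The receptors and ligands of the EGFR family did not move together. Of 20 receptors, ligands and feedback genes, 11 were tested (median -1.51), 1 was large and higher in BT20 and 4 were higher in U87. Over all tested genes these shares were 8.96% and 6.68%. The single BT20 member was ERBB3, the kinase-poor partner receptor, at 25.6 to 162.2 CPM (median 57.3) against 1 count in all U87 wells, a ratio of 303 (95% exact interval 54.1 to 12018). ERBB2 had medians of 15.5 CPM in BT20 and 0.745 CPM in U87 and was too low for a test, while the TruSeq pools read 163.8 and 178.9 CPM. A pair of ligands was on the U87 side: HBEGF was at 41.3 to 112.8 CPM (median 81.8) against 0 to 6.45 CPM (median 0), a log2 fold change of -5.34 ± 0.43 (SE) (edgeR adjusted p = 1.38e-13), and EREG (epiregulin) was at 40.1 to 669 CPM (median 186.3) against 0 to 40.5 CPM (median 13.3), with -4.24 ± 0.50 (SE) and ranges that met at their ends. The ligand TGFA was higher in U87 by less than 8-fold, at -1.62 ± 0.23 (SE) (edgeR adjusted p = 1.29e-07). DUSP6, the phosphatase that ERK signalling induces and that switches ERK off, was at 114.7 to 307 CPM (median 205) in U87 and 0 to 3.31 CPM (median 0) in BT20, with a log2 fold change of -8.09 ± 0.36 (SE) (edgeR adjusted p = 7.76e-21) and 2.02 and 1.91 CPM in the TruSeq pools. The EGFR inhibitor ERRFI1 was large at -3.99, but its mean was 1414 CPM on plate U87PS1A and 109.5 CPM on U87PS4B, it came to -2.53 without U87PS1A, and with TruSeq to -2.78. The BT20 wells, with the higher EGFR level, thus had the lower HBEGF, EREG and DUSP6 levels.

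**Figure D3:**
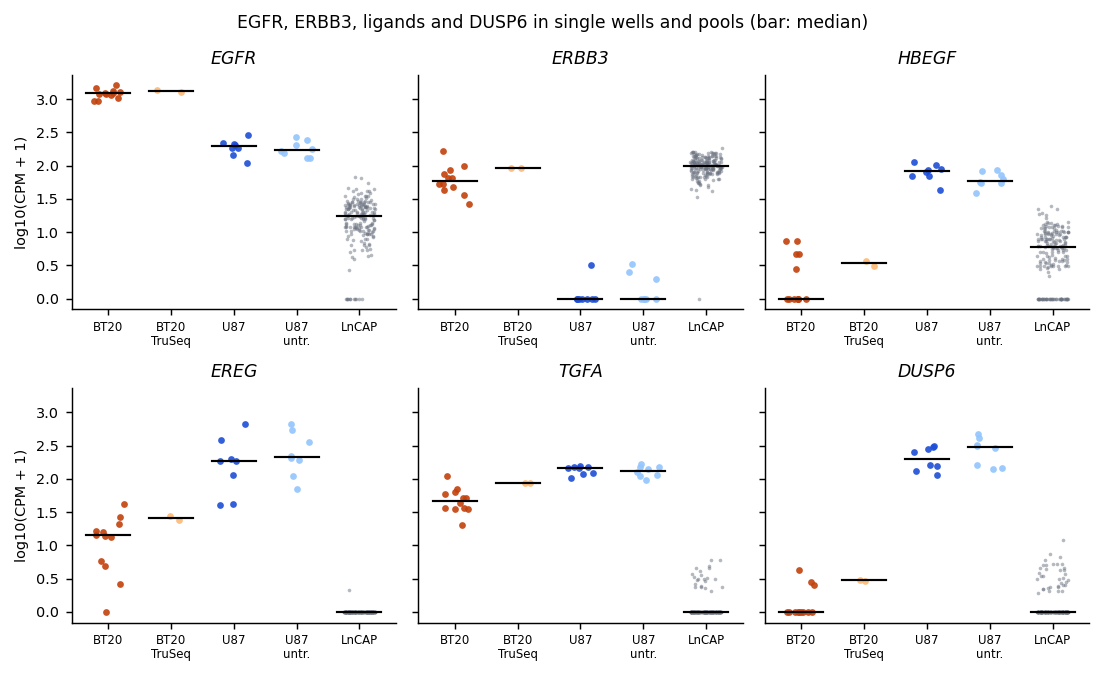
Levels of EGFR, ERBB3, 3 ligands and DUSP6 as log10(CPM + 1), with a point for each well or pool and a bar at the median, for BT20 DMSO wells, BT20 DMSO TruSeq pools, U87 DMSO wells, U87 UNTREATED wells and LnCAP wells. EGFR and ERBB3 are higher in BT20, and HBEGF, EREG, TGFA and DUSP6 have higher medians in U87.

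Genes next to EGFR were read for the same comparison. Of 13 neighbours on 7p11, 9 could be tested, and all 9 passed the adjusted p on the BT20 side, against 34.4% of all tested genes. Of the 9, 4 were large, against 8.96% of all tested genes. Members under the 8-fold limit, beside EGFR at 2.49, differed as follows: LANCL2 by 2.79, VOPP1 by 2.23, PSPH by 2.22, CHCHD2 by 1.69 and CCT6A by 1.31 on the log2 scale. With TruSeq the same 5 came to 2.38, 1.54, 1.45, 0.95 and 1.41, all on the BT20 side. MRPS17, a mitochondrial ribosomal protein, was large at 4.78 ± 0.32 (SE) (edgeR adjusted p = 1.02e-15), and GBAS at 3.12 was near the limit. A pair of members depends on the table or method. SEC61G, a subunit of the channel for protein export, was at 4708 to 6109.8 CPM (median 5522) in the BT20 PLATE-Seq wells but 355 and 343 CPM in the TruSeq pools, which turned its log2 fold change from 4.08 to -0.29. SUMF2 was at 0 in every U87 vehicle well and had a median of 0 in LnCAP, which shares that symbol table.

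Of 33 glial and neural stem cell genes, 26 had too few counts in both lines for a test. Of the 7 tested, 3 were large and higher in U87 and 1 in BT20, beside 6.68% and 8.96% of all tested genes. GFAP, the filament of astrocytes, had 0 counts in all 8 U87 wells, and OLIG2 and SOX2 had highest values of 1.42 and 3.41 CPM, so the defining astrocyte and oligodendrocyte markers were at or near 0 in the wells labelled U87. Those that were high were VCAN (versican), at 58.4 to 122.03 CPM (median 75.4), CHI3L1, a secreted glycoprotein of reactive astrocytes, at 52.5 to 110.2 CPM (median 73.5), and DPYSL3, a cytoskeletal protein of growing neurites, at 17.5 to 69.7 CPM (median 57.7). All 3 had 0 counts in BT20 and were at least 171.3-fold, 161.5-fold and 108.5-fold higher in U87. NES (nestin), of neural stem cells, had a median of 15.4 CPM in U87 and 0 in BT20, without a test. L1CAM, an adhesion molecule of neurons, was on the BT20 side, at 206 to 351 CPM (median 242) against 0 to 11.9 CPM (median 1.27), with 6.18 ± 0.34 (SE) (edgeR adjusted p = 4.34e-18).

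Hormone receptors were low in BT20. ESR1 was at 0 to 18.0 CPM (median 4.95), PGR at 0 in all 12 wells, and of 15 luminal genes only 3 had enough counts for a test, too few to set against the background. The luminal factors FOXA1 and GATA3, listed with the epithelial factors, were large in BT20, as given above. The 1 large member of the luminal list was CA12, a carbonic anhydrase at the cell surface that is often high in oestrogen receptor positive tumours, and it was higher in U87, at 566 to 1355 CPM (median 978) against 0 to 5.44 CPM (median 0) (log2 fold change -9.85 ± 0.33 (SE), edgeR adjusted p = 1.74e-24). Of 16 markers of blood, endothelial and other cell types, 8 had 0 counts in all 20 wells, the sum of the list was 43.0 to 107.1 CPM in BT20 and 20.2 to 103.6 CPM in U87, and all 3 that could be tested were large. CDH5, VE-cadherin of endothelium, was at 14.9 to 76.2 CPM (median 36.6) in BT20 and 130.4 and 141.9 CPM in its TruSeq pools, with 0 counts in U87. MBP, a myelin gene that other cells also transcribe, was higher in BT20, at a ratio of 124.3 (95% exact interval 22.0 to 4939). CD68, of macrophages, was at 20.2 to 103.6 CPM (median 65.6) in U87, with a log2 fold change of -5.86.

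Antigen presentation differed in both classes. Of 25 genes, 17 were tested (median -1.12), 5 were large and higher in U87 and 0 in BT20, all 5 with TruSeq too. HLA-B, which presents peptides from inside the cell, was at 299 to 1264 CPM (median 793) in U87 against 0 to 41.9 CPM (median 16.9) in BT20, with a log2 fold change of -5.58 ± 0.36 (SE) (edgeR adjusted p = 3.22e-13). B2M, the light chain of class I molecules, was 1074 and 1233 CPM at the median in BT20 and U87, a log2 fold change of -0.44 ± 0.17 (SE) (edgeR adjusted p = 0.0259). Class II genes followed the same direction. CD74, the invariant chain, was at 571 to 793 CPM (median 717) in U87 and 0 to 35.4 CPM (median 9.33) in BT20, with -6.15 ± 0.34 (SE) (edgeR adjusted p = 1.26e-15), HLA-DRB1 differed by -7.80 ± 0.37 (SE) and HLA-DPA1 by -8.60 ± 0.49 (SE). HLA genes are polymorphic and share sequence, so their counts are uncertain. TAP1 and PSMB8 were higher in BT20 by less than 8-fold, at 2.62 and 1.62.

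S100 proteins and annexins, calcium-binding proteins encoded in part in 1 cluster on chromosome 1, separated by member. Of 26, 17 were tested (median -1.004), 5 were large and higher in BT20 and 3 in U87, all 8 with TruSeq too. Over all tested genes 8.96% and 6.68% were large in these directions. The alarmins S100A8 and S100A9, which form calprotectin, were at 67.7 to 128.9 CPM (median 91.0) and 351 to 689.6 CPM (median 482) in BT20 against 0 to 4.26 CPM (median 0) and 0 to 6.48 CPM (median 1.34) in U87, with log2 fold changes of 6.45 ± 0.44 (SE) and 7.44 ± 0.34 (SE). S100A6, from the same cluster, went the other way, at 7419 to 14109.8 CPM (median 11434) in U87 against 143.97 to 302 CPM (median 199.6), with -5.94 ± 0.20 (SE) (edgeR adjusted p = 1.07e-24). S100A10, S100A11 and ANXA2 were above 1000 CPM at the median in both lines. ANXA1 and ANXA6 were large on the U87 side, at -5.12 and -7.31, and ANXA8, at 0 in U87, was at least 106.5-fold higher in BT20. Of 6 caveolar genes, of which 5 were tested, CAV1, PRKCDBP and EHD2 were large and higher in U87, at -3.42 ± 0.16 (SE), -5.60 ± 0.34 (SE) and -6.41 ± 0.48 (SE), and CAV1 was still at 108.6 to 275 CPM (median 188.8) in BT20.

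Targets of p53 included 3 large genes, all higher in U87, of 22 listed and 11 tested. Over all tested genes 6.68% were large and higher in U87, and 11 members are few to set against that share. CDKN1A (p21), the cell cycle inhibitor, was at 263 to 869 CPM (median 654) in U87 and 1.92 to 32.7 CPM (median 12.2) in BT20, with -5.62 ± 0.31 (SE) (edgeR adjusted p = 1.02e-16). The death receptor FAS and SESN2, a stress-induced regulator of growth signalling, differed by -4.15 and -3.37, while MDM2 did not pass the test (-0.27 ± 0.34 (SE), edgeR adjusted p = 0.483).

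Several genes on a stretch of chromosome arm 9p were at 0 in the U87 vehicle wells. The sum of 10 listed genes around CDKN2A was 0 to 11.4 CPM there, from listed genes not named here. CDKN2A, the p16 and ARF tumour suppressor that many cancers delete, had 0 counts in all 12 BT20 and all 8 U87 wells and in both TruSeq pools, and a median of 258 CPM in LnCAP. MTAP, the methylthioadenosine phosphorylase gene beside it, was at 0 to 41.7 CPM (median 14.8) in BT20 and at 0 in all 8 U87 wells, and LnCAP had a median of 16.3 CPM on the same symbol table. The neighbours MLLT3, FOCAD and KLHL9 were also at 0 in all U87 vehicle wells, with medians of 24.1, 14.8 and 16.0 CPM in BT20 and of 14.4, 37.6 and 8.62 CPM in LnCAP. On GRCh37 these 4 genes span chr9:20341667-21937650. On either side, RPS6 (median 489 CPM), DENND4C (21.0), TUSC1 (8.02) and CAAP1 (11.2) were counted in U87. Over all U87 wells of the series, whatever the drug, MLLT3, FOCAD, KLHL9 and MTAP had 48, 30, 14 and 16 counts. Among 6849 autosomal genes with a mean of at least 5 CPM in BT20 wells, TruSeq pools and LnCAP, 92 were at 0 in all U87 vehicle wells, and this run of 4 neighbours was the longest of 7 runs of at least 2, the next being 3 zinc finger genes on chromosome 19. The scan passed over genes below that level, so neighbours are those among the 6849. It was added after the values were seen, and MTAP, FOCAD and KLHL9 were too low for a test. MLLT3, tested, was at least 39.6-fold higher in BT20.

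**Figure D4:**
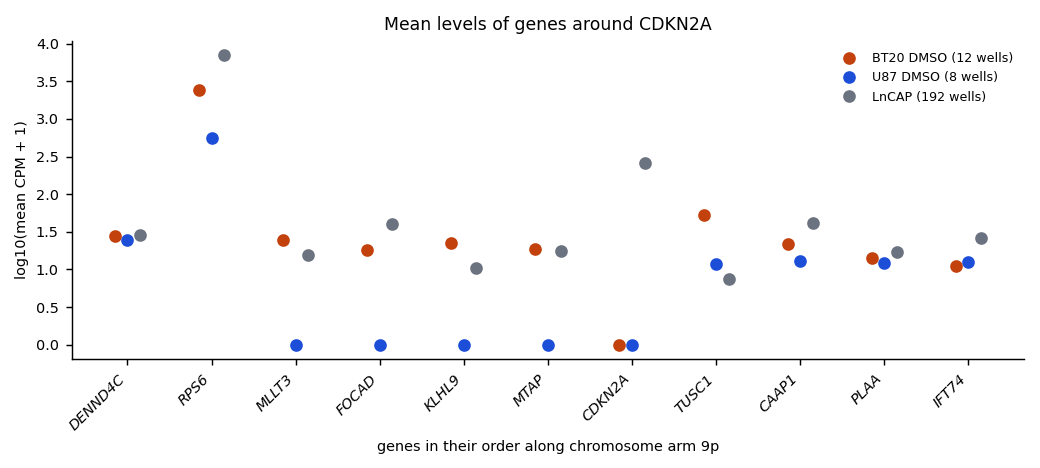
Mean level as log10(mean CPM + 1) of 11 genes in their order along chromosome arm 9p, for BT20 DMSO wells (12), U87 DMSO wells (8) and LnCAP wells; the order is not to scale. MLLT3, FOCAD, KLHL9 and MTAP are at 0 in U87 only, and CDKN2A is at 0 in U87 and BT20.

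Position and germ cell programmes gave short lists. Of 39 HOX genes, 3 were tested, HOXB7 and HOXC10 were large and higher in BT20 (5.99 and 4.29), and neither stayed past 8-fold with TruSeq (2.60 and 2.32). Of 20 cancer-testis antigens, 10 were at 0 in all 20 wells, and the 2 that could be tested were large, both in BT20. MAGEA3 was at 45.7 to 301 CPM (median 196) with 0 counts in U87, at least 317-fold higher, and MAGEA12 was at 76.2 to 134.1 CPM (median 102.4) with 1 count in U87, a ratio of 541 (95% exact interval 96.7 to 21393). Members of this family are near-identical in sequence, so their counts are uncertain; MAGEA6 read a median of 2.85 CPM in the PLATE-Seq wells and 120.4 and 120.1 CPM in the TruSeq pools. Cell cycle genes numbered 22, of which 20 were tested (median 0.57). The 2 large ones were higher in BT20, a share near the 8.96% of all tested genes. An adjusted p under 0.05 alone was reached by 10 on the BT20 side and 5 on the U87 side, beside 34.4% and 33.8% of all tested genes. The list sum was 4592 to 5261 CPM in the BT20 wells and 1901 to 3400 CPM in the U87 wells. TOP2A and MCM5 did not pass the test (-0.05 ± 0.16 (SE) and -0.08 ± 0.19 (SE), with edgeR adjusted p of 0.786 and 0.722). PLK1, a mitotic kinase, was at 494 to 778 CPM (median 678) against 4.50 to 35.5 CPM (median 23.1) (4.61 ± 0.21 (SE)) and came to 2.36 with TruSeq. TYMS, the target of fluorouracil, was at 0 in U87 and also had a median of 0 in LnCAP.

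Some of the largest differences sat on genes that every cell uses. RPS17L, RPL21, H3F3A, RPL7 and MIF had the highest BT20 levels among genes at 0 in all 8 U87 vehicle wells, with medians of 5352, 2897, 2327, 829 and 823 CPM. All 5 also had a median of 0 in LnCAP, on the U87 symbol table, and between 107.7 and 825 CPM in the TruSeq pools. The ribosomal proteins RPS26, RPS3A and RPS25 and the transport factor NUTF2 were at 0.626, 14.2, 4.74 and 4.62 CPM at the median in U87 against 2592, 8663, 2790.5 and 1620.4 CPM in BT20, and LnCAP read 0, 25.1, 32.9 and 53.3 CPM. Of 26 common reference genes, all tested, 3 were large on the BT20 side, a share near the 8.96% of all tested genes: EEF1A1 (6.19), PPIA (6.11) and RPL13A (3.71, and 2.32 with TruSeq). GAPDH, HPRT1 and TBP were far from the limit, at -0.56, 0.96 and -0.19. Many of these genes have processed pseudogenes or copies, and how each table assigned such reads cannot be told apart from the lines.

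The reverse case was TUBA1B, an α-tubulin of all cells. It was at 0 to 14.9 CPM (median 2.17) in the BT20 PLATE-Seq wells, 514 and 536 CPM in the TruSeq pools of the same line, 7685 to 56469 CPM (median 29447) in U87 and a median of 23242 CPM in LnCAP. Its plate means in U87 ran from 7824 CPM on U87PS1B to 55419.7 CPM on U87PS4B. Of the 484 genes higher in U87, 48 had a TruSeq level at least 8 times that of the BT20 wells, and 13 had no count in any of the 96 BT20 wells or 16 TruSeq pools. Of the 649 genes higher in BT20, 293 had a mean of at least 10 CPM in LnCAP, 212 of them also large with TruSeq. Another 194 of the 649 had an LnCAP mean under 1 CPM, and 22 had no count in any U87 or LnCAP well. Whether the symbol table has a part in the low levels of those 194 was not tested. Shares of all tested genes within these limits were not computed, so the counts are descriptions only. The kinase MKNK2, which acts on eIF4E, and ALCAM, an adhesion molecule, were other genes high in U87 (-7.28 ± 0.42 (SE) and -7.35 ± 0.53 (SE)), with 51.7 and 55.3 CPM and 8.10 and 9.01 CPM in the TruSeq pools, and CREB3L1, a transcription factor of secretory cells, was at 122.05 to 562 CPM (median 288) in U87 against 0 to 3.74 CPM (median 1.58), with -7.82 ± 0.38 (SE) (edgeR adjusted p = 7.34e-20).

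**Figure D5:**
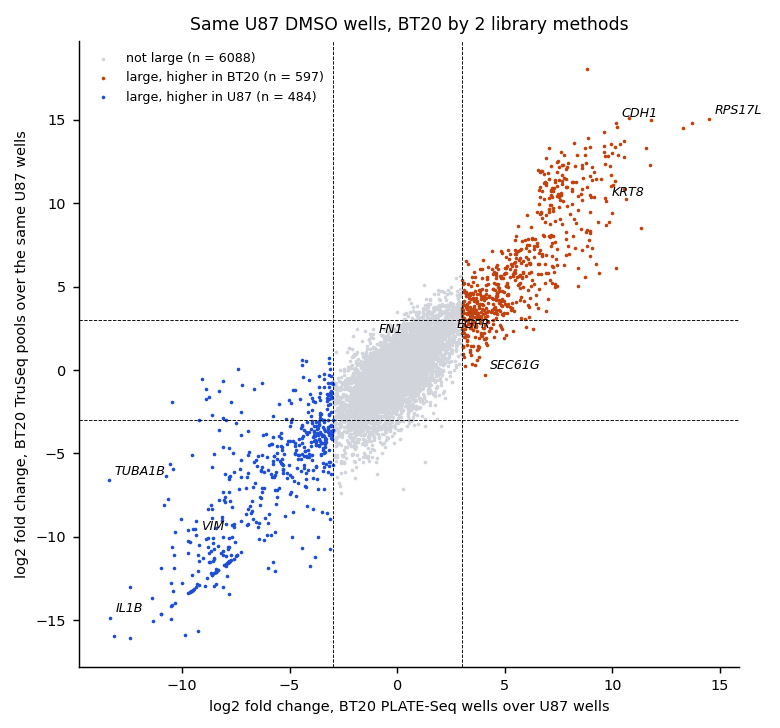
The log2 fold change of BT20 over the same 8 U87 DMSO wells with the 12 PLATE-Seq wells (horizontal axis) and with the 2 TruSeq pools (vertical axis), with a point for each of 7169 genes tested in both fits and dashed lines at 8-fold. KRT8, CDH1, VIM and IL1B are far from 0 on both axes, and SEC61G and FN1 lie on opposite sides of 0.

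Each U87 plate alone gave a like number of large differences against BT20, in a fit with the 4 plates as groups: 1231 on U87PS1A, 1131 on U87PS1B, 1151 on U87PS4A and 1406 on U87PS4B, against 1133 with all plates. With the UNTREATED U87 wells in place of the DMSO wells, 1172 genes were large. The UNTREATED wells lay without overlap on the same side of the BT20 wells for 580 of the 649 genes higher in BT20 and for 443 of the 484 higher in U87, beside 17.2% and 11.1% of all tested genes in the same directions. Over all BT20 and U87 wells, whatever the drug, 43.8% of the 649 and 25.0% of the 484 genes still did not overlap, beside 4.73% and 1.84% of all tested genes, KRT8, KRT18, KRT5, KRT7, CDH1, EPCAM, VIM, MMP2, CD74 and IL1B among them. The 649 and 484 genes were chosen with the same BT20 wells, and UNTREATED and DMSO wells share plates and symbol table. All wells of a line include its vehicle wells. These shares thus follow in part from the choice of genes and are descriptions only.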

How the data were processed

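The 12 BT20 and 8 U87 DMSO wells were grouped by their labels. The authors deposited raw counts per gene symbol, made from 3′-end reads aligned with BWA to hg19, with no molecular identifiers named; how the TruSeq counts were made is not given in the sources used here. Spike-ins and 6 symbols were left out, and totals were 367848 to 1071312 counts a BT20 well and 445250 to 799631 a U87 well. Differences were fitted with edgeR 4.0.16 in R 4.3.3 (TMM, filterByExpr, robust quasi-likelihood test), with DESeq2 1.42.0 as an alternative. CPM were computed from the deposited counts without the TMM scaling planned for levels. Intervals and floors cover counting error only.

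Named genes were the 4 markers, the 10 largest differences in each direction with at least 100 CPM in the higher line and counts in most wells of the other, the 5 most abundant at 0 in the other line, large members of each list and members a list is known for. Other genes named (among them KRT19, FN1, CDH2, NES, FOXC1, B2M, MDM2, MAGEA6, TOP2A and members under 8-fold), the counts with LnCAP limits, the joint calls with TruSeq, the motif shares and the 9p scan were chosen after values were seen. Members and lists were chosen with earlier results of these data known. Matched promoters are from RefSeq. The fit was tested on simulated data. Some genes of the lists are counted but not reported by name here.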

Additional observations from a re-analysis of the deposited data

How the results depend on the processing

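No paired analysis was possible because the well numbers of the 2 lines name no shared culture and each line was on its own plates. The 1133 large differences were 15.6% of 7247 genes tested. The count came to 2896 of 13770 with DESeq2 (21.0%), 3393 of 16608 with no filter on low counts (20.4%), 1903 of 7247 at a log2 fold change of at least 2 (26.3%), 2635 of 10128 with the TruSeq pools in place of the wells (26.0%) and 618 of 4113 with all wells thinned to 221953 counts (15.0%). The 4948 genes past the adjusted p (68.3%) came to 7730 with DESeq2 (56.1%), 9284 with no filter (55.9%), 1349 with glmTreat against a log2 fold change of 2 (18.6%) and 2959 after thinning (71.9%). Leaving out a U87 plate gave 1234 to 1317 large differences, and a single plate 1131 to 1406. With the U87 wells summed per plate, 1476 of 8476 genes were large (17.4%). RLE normalization gave 1134, and keeping the 6 symbols 1119. With the 6 symbols kept, 572 were higher in BT20 and 547 in U87, against 649 and 484, and the median log2 fold change was -0.11. Under 19 alternatives, 2180 values were computed, for most but not all genes named. Of these, 2147 kept their direction and side of the limits, 31 kept their direction but came under a limit, and 1, EGFR with glmTreat, passed. Nearly all of these genes were already large in the reported fit, and most alternatives reuse the same wells. The stability thus follows in part from the choice of genes, and the counts are descriptions only. Among the 2180 values SEC61G reversed, at -0.29 with the TruSeq pools. FN1, outside them, went from -1.11 to 1.91 with the pools. The cause was not tested for either gene. The number of genes tested follows the filter on low counts, and genes low in both lines were left without a test.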
